A study of Homo sapiens with 4 samples.

Results

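The 30 genes described here serve cholesterol synthesis, its control by SREBP and the disposal of sterol under LXR. They were taken from a fixed list of names and matched to Ensembl identifiers, and 29 of the 30 had a count among the 57905 genes of the files. *ACACA* had no matching identifier and was not analysed here. Of the 29, 28 passed the filter on low counts and were tested; *ABCG1* did not, with 3 and 5 reads in the control and 3 and 11 reads in the chaetocin samples.

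The cells were U87MG, an established human glioblastoma line of wild type genotype at passages 8-10. Control cells were left untreated, and the other group received chaetocin (50 nM, in DMSO) for 24 h, so the drug and its solvent cannot be told apart. Each group had 2 samples (n = 2), and no label says that they came from separate cultures, so p-values measure the spread between these samples only, which may be technical. Chaetocin is a fungal metabolite that inhibits histone methyltransferases and thioredoxin reductase, and the comparison asked how it altered expression in these cells.

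Polyadenylated RNA was sequenced, and the samples held between 21241984 and 32590479 counts. A count of 3 reads corresponded to between 0.0921 and 0.141 CPM before normalisation, a floor that covers counting error only. CPM are counts scaled by the size of each library, and levels below were also normalised by the TMM method. Markers of a mesenchymal glioma line were abundant, with *VIM*, *CD44*, *NES*, *SOX9* and *CAV1* summing to 6958 and 5853 CPM in the control and 4346 and 2390 CPM in the chaetocin samples. *CAV1* overlapped between groups and the other 4 were lower in both chaetocin samples. Defining astrocyte markers were at or near 0, with no read of *AQP4* in any sample and 0.46 to 1.02 CPM of *GFAP*, which was lower in both chaetocin samples. The third, *ALDH1L1*, was at 0.205 and 0.557 CPM in the control and 1.01 and 1.04 CPM with chaetocin. The epithelial marker *EPCAM* was at 0.82 and 0.835 CPM in the control and 1.24 and 1.97 CPM with chaetocin, and the neuronal *SYT1* at 17.4 and 17.9 CPM against 13.2 and 13.9 CPM. The other neuronal marker, *RBFOX3*, was too scarce to be tested, with 2 and 4 reads in the control and 8 and 3 with chaetocin. Of the mesenchymal, astrocyte, epithelial and neuronal markers tested, edgeR's quasi-likelihood test called none, and DESeq2 called *CD44* (adjusted p = 8.62e-05) and *VIM* (adjusted p = 0.00998) lower. The leukocyte markers *PTPRC*, *CD3E* and *CD14* summed to 0.287 and 0.418 CPM in the control and 1.15 and 1.91 CPM in the chaetocin samples, with no read of *CD3E*. *PTPRC* was called as higher (adjusted p = 0.0412 by edgeR's quasi-likelihood test), on 0 and 1 reads in the control and 15 and 27 with chaetocin, and DESeq2 did not call it (adjusted p = 0.0569). The part of these marker differences in the results below was not tested. In bulk RNA, fewer cells of a type and less RNA per cell cannot be told apart.

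Cholesterol is built from acetyl-CoA, first along the mevalonate pathway to farnesyl diphosphate and then through squalene and lanosterol to the sterol itself. When sterol in the endoplasmic reticulum is low, SCAP carries the precursors of the SREBP transcription factors to the Golgi, where they are cleaved, and the released fragments raise the genes of synthesis and uptake; INSIG proteins hold SCAP back when sterol is abundant. Oxysterols act through LXR, a nuclear receptor that raises sterol efflux pumps and *SREBF1*. Glioblastoma cells are known for a high demand for cholesterol.

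SREBP binds the sterol element in promoters together with the factors of the CCAAT box and the GC box. The promoters of 4 genes are shown. Among the 25 members with a promoter sequence, the letters TCACNCCAC, a form of the sterol element core, were found only for *SREBF2*. Other forms of the sterol element were not searched. *HMGCS1*, *DHCR7* and *ABCA1* were the members that DESeq2 called as lower. Sequences are from RefSeq on GRCh38.p14, on the strand of the gene, and hold no exonic base of that gene in GENCODE v29. For *SREBF2*, *HMGCS1* and *ABCA1* the stretch lies before the annotated gene. That of *DHCR7* lies inside the gene, since an annotated exon lies further upstream; a second *DHCR7* window, further upstream and with none of the motifs, is not shown. *SREBF2* lies on the plus strand (chr22:41832855-41833078) and the others on the minus strand (chr5:43313513-43313662 for *HMGCS1*, chr11:71448436-71448643 for *DHCR7* and chr9:104928238-104928405 for *ABCA1*). Capitals mark the core TCACNCCAC, the CCAAT box CCAAT and the GC box GGGCGG on either strand.
SREBF2: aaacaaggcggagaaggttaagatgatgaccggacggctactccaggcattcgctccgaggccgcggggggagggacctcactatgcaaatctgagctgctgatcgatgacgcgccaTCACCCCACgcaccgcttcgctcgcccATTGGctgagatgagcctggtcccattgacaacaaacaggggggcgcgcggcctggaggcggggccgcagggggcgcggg
HMGCS1: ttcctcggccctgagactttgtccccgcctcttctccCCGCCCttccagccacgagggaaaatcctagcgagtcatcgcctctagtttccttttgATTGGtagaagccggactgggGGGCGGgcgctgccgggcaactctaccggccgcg
DHCR7: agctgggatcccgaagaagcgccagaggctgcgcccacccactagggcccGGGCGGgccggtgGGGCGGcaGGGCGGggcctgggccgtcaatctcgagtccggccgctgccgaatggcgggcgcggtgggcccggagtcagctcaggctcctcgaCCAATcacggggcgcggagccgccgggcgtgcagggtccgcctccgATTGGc
ABCA1: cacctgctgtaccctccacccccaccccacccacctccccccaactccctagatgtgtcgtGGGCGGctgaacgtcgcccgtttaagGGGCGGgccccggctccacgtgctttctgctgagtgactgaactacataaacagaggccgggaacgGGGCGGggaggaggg

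A window of 250 bases before to 50 bases after a start was held for 25 of the 30 members; none was held for *ACAT2*, *FDFT1*, *SQLE*, *ABCG1* and *FASN*. *ACACA* is among the 25. The sterol element core TCACNCCAC was found for 1 of the 25 members, *SREBF2*, as TCACCCCAC, and for 1.39% of all 27305 genes with a window. A CCAAT box was found for 19 of the 25 members against 39.7% of all genes, and a GC box for 24 of the 25 against 48.3%. The 27305 genes were not filtered for expression in these cells, and these contrasts were not tested. In the 4 stretches shown, no marked motif overlaps another; further boxes of *SREBF2*, *HMGCS1* and *DHCR7* lie in windows or bases that are not shown. *ABCA1* had GC boxes and no CCAAT box in its window, whereas *HMGCS1* and *DHCR7* had both. These are matches of letters and were not measured as binding. Elements bound by LXR were not searched.

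No member passed the test between chaetocin and control. At an adjusted p under 0.05 (edgeR's quasi-likelihood test, Benjamini-Hochberg over 16416 genes; a gene past it is named called here), 0 of the 28 members were called higher and 0 lower, where 1.11% of all genes were called higher and 0.743% lower. At an unadjusted p under 0.05, 9 members were lower and 0 higher, against 9.43% and 10.9% of all genes. These 9 were *SREBF1*, *SREBF2*, *HMGCS1*, *SQLE*, *CYP51A1*, *MSMO1*, *NSDHL*, *DHCR7* and *ABCA1*. Both chaetocin samples lay below both control samples for 12 members and above them for 1, against 26.0% and 26.8% of all genes. The median log2 fold change was -0.20 over the members and 0.01 over all genes, with 18 members below 0 and 10 above.

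DESeq2's Wald test called 3 members lower and 0 higher, where it called 2.82% of all genes lower and 2.25% higher. The 3 were *ABCA1* (adjusted p = 0.000107), *HMGCS1* (adjusted p = 0.00632) and *DHCR7* (adjusted p = 0.0324). The edgeR result also turned on single libraries. Without chaetocin sample 1, 9 of 29 members were called lower and 5 higher (*IDI1*, *TM7SF2*, *SC5D*, *STARD4* and *SCD*), where that fit called 9.48% of all genes lower and 7.55% higher. Without chaetocin sample 2, 5 of 28 were called lower and 0 higher, against 5.59% and 4.23% of all genes. Without control sample 1, *ABCA1* alone was called lower (0.538% of all genes), and without control sample 2 no member was (0.868%). Such fits leave 1 sample in a group, which is assumed to vary like the samples of the other group. *HMGCS1*, *DHCR7*, *SREBF2* and *ABCA1* were called lower whichever chaetocin sample was left out. With RLE size factors *ABCA1* was called lower (adjusted p = 0.0495), as were 0.737% of all genes. With no filter on low counts 5 of 29 members were called lower, against 2.39% of all genes.

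The chaetocin samples stood apart from each other. The absolute log2 difference between them exceeded the fitted change for 16 of the 28 members, and for 51.4% of all genes. Its median over the members was 0.33, against 0.13 between the control samples, and the chaetocin gap was the wider one for 23 members. Over all genes these medians were 0.29 and 0.18, and the chaetocin gap was the wider one for 10412 of 16416.

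**Figure D1:**
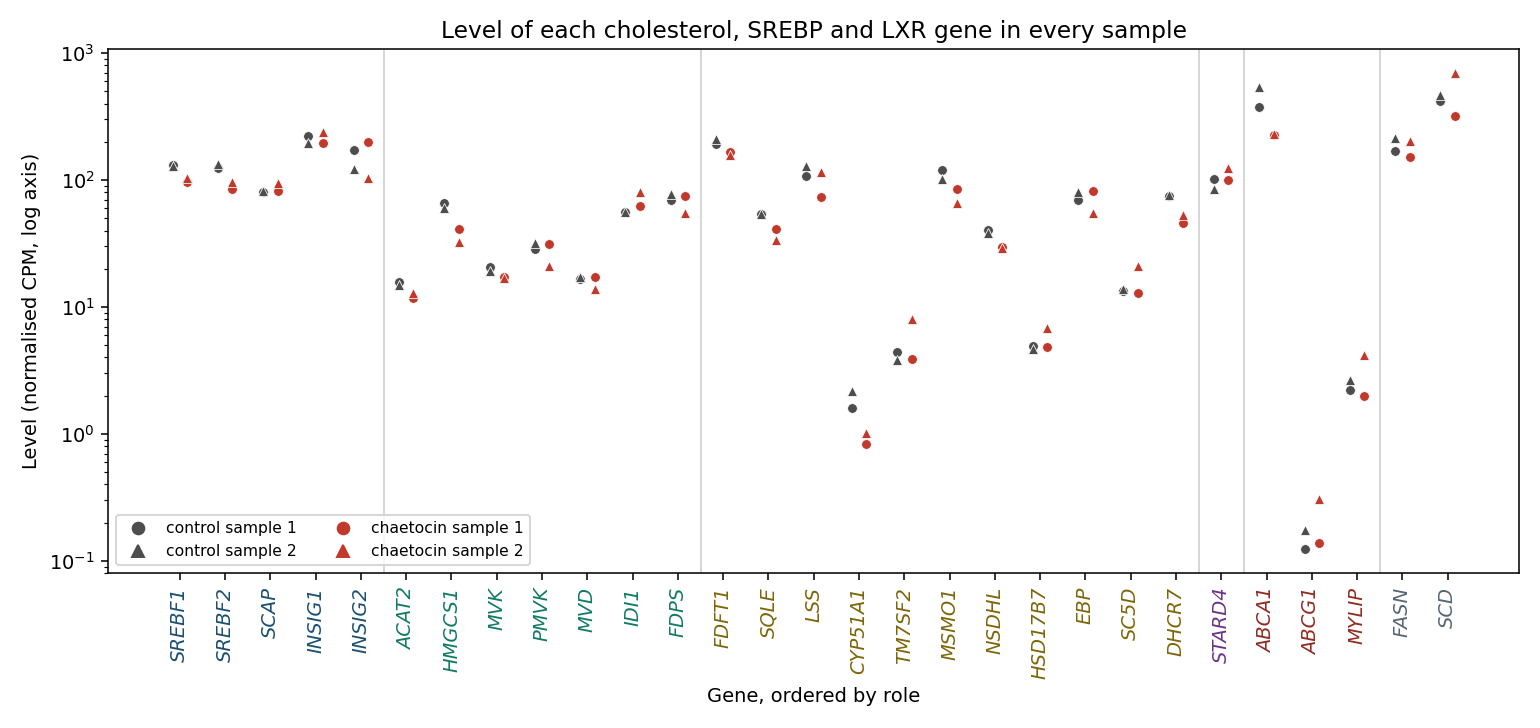
Level of the 29 measured genes in every sample, in normalised CPM on a log axis, with genes on the horizontal axis in order of role. Grey points are control and red points chaetocin, and circles and triangles are samples 1 and 2. *ABCA1* and *HMGCS1* show both red points below both grey points, and *SCD* and *INSIG2* show red points on both sides of the grey ones.

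Both genes that encode the SREBP precursors were at lower values in both chaetocin samples. *SREBF2*, whose product drives chiefly the genes of cholesterol synthesis, was at 123.7 and 134.1 CPM in the control and 85.3 and 96.4 CPM in the chaetocin samples. Its log2 fold change was -0.50 (95% interval -0.84 to -0.17; adjusted p = 0.112 by edgeR's quasi-likelihood test). *SREBF1*, whose products act chiefly on fatty acid genes, was at 131.1 and 130.0 CPM in the control and 97.2 and 103.7 CPM with chaetocin. The groups did not overlap, and its log2 fold change was -0.38 (95% interval -0.70 to -0.06; adjusted p = 0.182).

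The partners of SREBP in the endoplasmic reticulum showed no difference larger than the spread. *SCAP*, the escort of SREBP, was at 80.7 and 82.0 CPM in the control and 81.3 and 94.8 CPM with chaetocin, so that the lower chaetocin sample lay between the controls. Its log2 fold change was 0.12 (95% interval -0.22 to 0.45). *INSIG1*, which retains SCAP and is itself a target of SREBP, had a log2 fold change of 0.05 (95% interval -0.33 to 0.44). *INSIG2*, its paralog, had a log2 fold change of 0.03 with a wide interval from -0.66 to 0.72. The chaetocin samples of *INSIG2*, at 197.7 and 102.9 CPM, lay on either side of the controls at 172.8 and 121.6 CPM.

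Of the 7 mevalonate enzymes, 6 had a log2 fold change below 0 and 1 above, with a median of -0.20. This count turned on chaetocin sample 2, without which 3 were below 0 and 4 above, with a median of 0.01. *HMGCS1*, the cytosolic synthase that makes HMG-CoA, was at 65.7 and 60.3 CPM in the control and 40.9 and 32.5 CPM with chaetocin. The chaetocin samples were thus both well below the controls, and the log2 fold change was -0.78 (standard error 0.17, adjusted p = 0.0555 by edgeR's quasi-likelihood test). *IDI1*, the isomerase of isopentenyl diphosphate, went the other way, with 56.3 and 55.8 CPM in the control and 62.2 and 79.8 CPM with chaetocin. It was the 1 member with both chaetocin samples above both controls (log2 fold change 0.34, adjusted p = 0.288). The value was 0.51 without chaetocin sample 1 and 0.14 without sample 2. *ACAT2*, the cytosolic thiolase that joins acetyl-CoA units, was at 15.8 and 14.8 CPM in the control and 11.7 and 12.9 CPM with chaetocin (log2 fold change -0.31, adjusted p = 0.38). Its count is uncertain, since up to 1458 of its 4299 exonic bases are shared with a gene on the opposite strand and the strand setting of the counting is not known. The same holds to a smaller extent for *HMGCS1* (703 bases), *FDPS* (693 bases), *IDI1* (643 bases) and *SREBF1* (556 bases).

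The other 4 enzymes of this stretch had log2 fold changes between -0.23 and -0.13. These are the mevalonate kinase *MVK* (-0.23), the phosphomevalonate kinase *PMVK* (-0.20), the decarboxylase *MVD* (-0.13) and the farnesyl diphosphate synthase *FDPS* (-0.19). The chaetocin samples of *MVK* lay below both controls, at 17.1 and 16.9 CPM against 20.6 and 19.2 CPM, while those of the other 3 overlapped with the controls. In *PMVK*, *MVD* and *FDPS*, chaetocin sample 2 was the lower one and sample 1 lay within the range of the controls. *FDPS* has 8 numbered pseudogenes in the annotation, whose reads may be split with it.

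Among the 11 enzymes from squalene to cholesterol, 8 had a log2 fold change below 0 and 3 above, with a median of -0.34. *DHCR7*, the reductase of the last step, was at 75.2 and 76.3 CPM in the control and 45.5 and 53.4 CPM with chaetocin. The controls were close together and both chaetocin samples were below them (log2 fold change -0.61, standard error 0.15, adjusted p = 0.0762 by edgeR's quasi-likelihood test). *MSMO1*, a methylsterol oxidase that removes methyl groups after lanosterol, was at 120.0 and 102.5 CPM in the control and 84.2 and 65.7 CPM with chaetocin. Its log2 fold change was -0.57 (standard error 0.17, adjusted p = 0.121).

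*SQLE*, the epoxidase of squalene and a slow step of the pathway, was at 53.8 and 54.3 CPM in the control and 40.8 and 33.4 CPM with chaetocin. *NSDHL*, a sterol dehydrogenase, was at 40.7 and 38.3 CPM in the control and 29.7 and 29.2 CPM with chaetocin. Neither overlapped between groups, and the log2 fold changes were -0.55 for *SQLE* (adjusted p = 0.113) and -0.42 for *NSDHL* (adjusted p = 0.166). *FDFT1*, the squalene synthase, had a log2 fold change of -0.30 and no overlap. *LSS*, the lanosterol synthase, had one of -0.34, with chaetocin sample 2 at 114.7 CPM between the controls at 107.9 and 129.9 CPM. It was -0.05 without chaetocin sample 1 and -0.71 without chaetocin sample 2, where *LSS* was called lower (adjusted p = 0.0118 by edgeR's quasi-likelihood test).

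*CYP51A1*, the lanosterol demethylase, had few reads, with 39 and 63 in the control and 18 and 36 in the chaetocin samples. Its log2 fold change of -1.03 had an interval from -1.92 to -0.14 (adjusted p = 0.19). In the annotation, 2844 of its 3584 exonic bases are shared with an overlapping gene on the same strand, so its count is uncertain. The 3 enzymes above 0 were the sterol reductase *TM7SF2* (0.54), the 3-keto reductase *HSD17B7* (0.29) and the desaturase *SC5D* (0.32). In each of them chaetocin sample 2 stood above the controls and sample 1 lay within their range or just below it. *EBP*, the sterol isomerase, had a log2 fold change of -0.14 and samples on both sides of the controls.

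Summed over the 18 mevalonate and sterol enzymes, the level was 957.6 and 991.5 CPM in the control and 800.4 and 778.2 CPM in the chaetocin samples. The groups did not overlap, and the mean was 19.0% lower with chaetocin, at 789.3 ± 15.7 CPM against 974.6 ± 24.0 CPM (SD, n = 2 each). The sum was 22.0% lower for the 11 sterol enzymes and 11.5% lower for the 7 mevalonate enzymes. The latter difference was -7.29% without chaetocin sample 2 and -15.7% without chaetocin sample 1. This sum weights abundant genes most, of which *FDFT1* has the highest CPM among these enzymes.

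**Figure D2:**
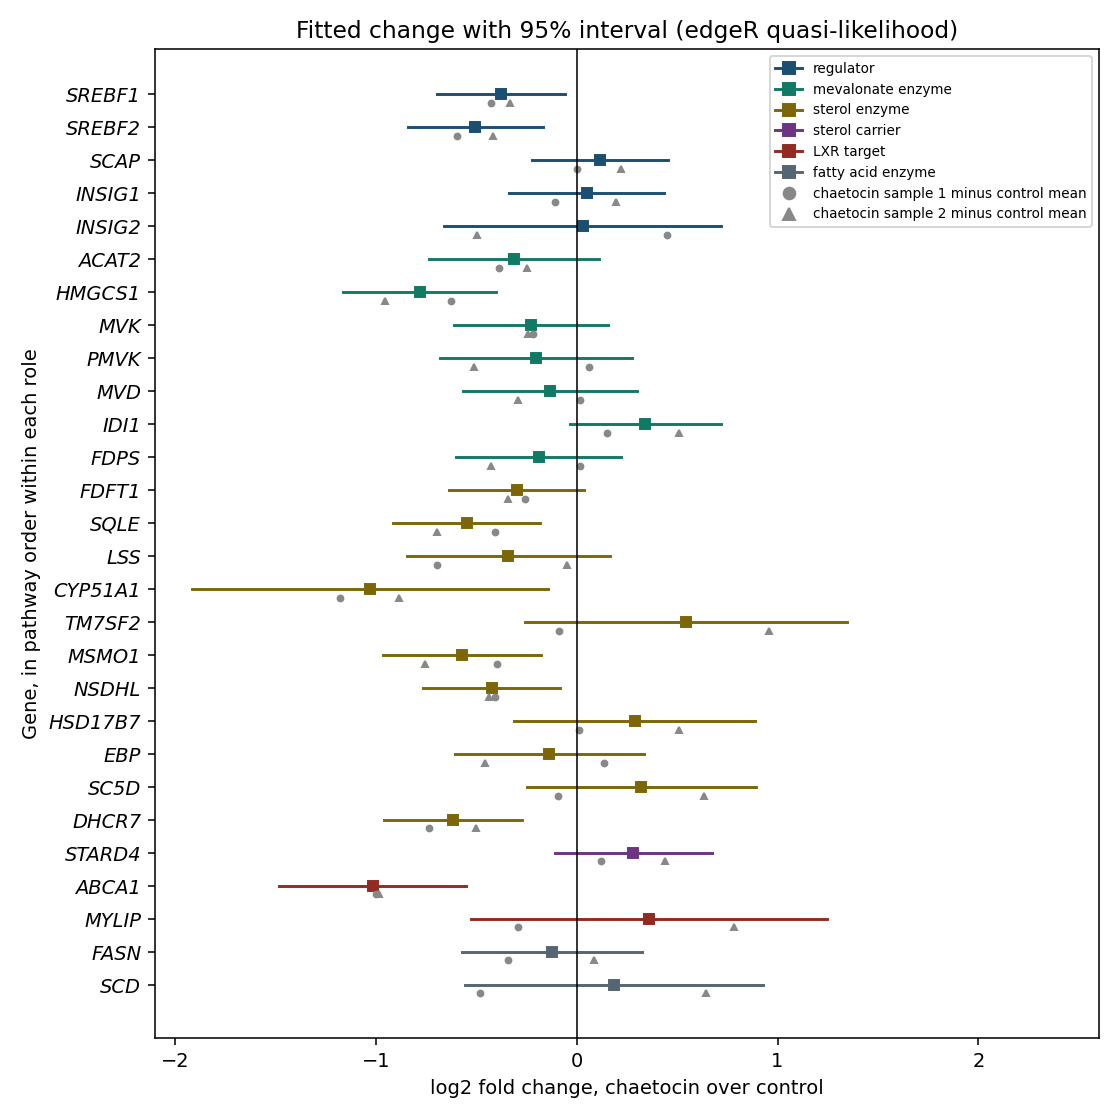
Fitted log2 fold change of the 28 tested genes (squares, horizontal axis) with its 95% interval (lines), in pathway order within each role, coloured by role. Grey circles and triangles are chaetocin samples 1 and 2 against the control mean. The intervals of 9 genes lie wholly below 0 and none lies wholly above.

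*ABCA1*, the pump that exports cholesterol to apolipoprotein A-I and a classical LXR target, had the smallest p-value of the members. It was at 375.4 and 542.3 CPM in the control and 225.9 and 228.5 CPM in the chaetocin samples. The chaetocin samples were nearly alike and the controls differed from each other, yet the groups did not overlap. The log2 fold change was -1.01 (standard error 0.20, 95% interval -1.48 to -0.55), and the adjusted p of 0.0503 by edgeR's quasi-likelihood test lay just above the threshold.

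*MYLIP* and *ABCG1*, also listed as LXR targets, were scarce. *MYLIP*, a ubiquitin ligase that degrades lipoprotein receptors, was at 2.21 and 2.65 CPM in the control and 1.98 and 4.17 CPM with chaetocin, on both sides of the controls. Its log2 fold change was 0.36 (95% interval -0.53 to 1.25). *ABCG1*, a second efflux pump, was at 0.123 and 0.174 CPM in the control and 0.138 and 0.31 CPM with chaetocin. These levels were at or near the floor of 3 reads except in chaetocin sample 2.

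*STARD4*, a carrier that moves sterol between membranes and a target of SREBP, was at 101.3 and 84.3 CPM in the control and 100.3 and 125.2 CPM with chaetocin. The groups overlapped, and the log2 fold change was 0.28 (95% interval -0.11 to 0.67). It was 0.44 without chaetocin sample 1 and 0.11 without sample 2. Of the fatty acid enzymes, *SCD*, the desaturase that makes oleate, was at 420.7 and 467.7 CPM in the control and 317.5 and 692.9 CPM with chaetocin. Its chaetocin samples were the lowest and the highest of the 4, and the log2 fold change was 0.19 (95% interval -0.55 to 0.93). *FASN*, the fatty acid synthase, was at 170.7 and 216.1 CPM in the control and 151.7 and 203.7 CPM with chaetocin (log2 fold change -0.12, 95% interval -0.57 to 0.32). Neither gene differed detectably between groups at this spread.

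Levels were compared between genes per length, as CPM per kilobase of merged exons in GENCODE v29. In control cells *SCD* stood highest, at 82.8 ± 6.20 (SD, n = 2), followed by *INSIG1* at 57.3 ± 5.09. *ABCA1* (40.4 ± 10.4), *FDFT1* (38.6 ± 2.16), *MSMO1* (38.5 ± 4.29) and *INSIG2* (37.3 ± 9.16) came next and did not differ from each other beyond their spread. At the other end stood *ABCG1* (0.0243 ± 0.0059), *CYP51A1* (0.529 ± 0.117) and *MYLIP* (0.801 ± 0.101). The place of *CYP51A1* is uncertain, since 2844 of its 3584 exonic bases are shared with an overlapping gene on the same strand. With chaetocin *HMGCS1* was at 7.80 ± 1.25 on this scale, against 13.4 ± 0.808 in control cells.

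**Figure D3:**
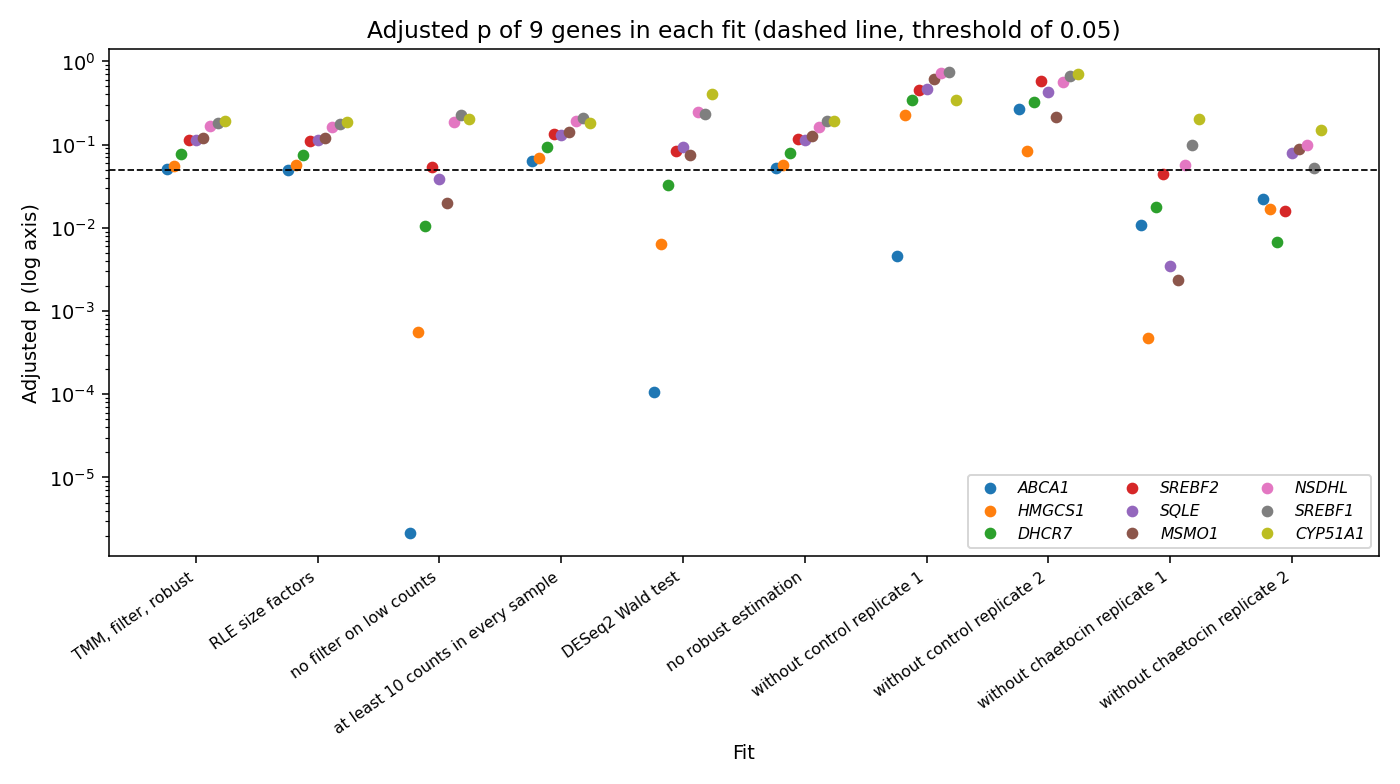
Adjusted p (vertical log axis) of the 9 members with an unadjusted p under 0.05, in the fit described in the text (TMM, filter, robust) and in 9 other fits along the horizontal axis. The dashed line is the threshold of 0.05. *ABCA1* lies at 0.0503 in the first fit, and the points spread on both sides of the line when either chaetocin sample is left out.

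A list of 31 further genes of sterol and fatty acid metabolism was read from the same fit, and 29 of them were tested. The 1 gene called, where 0.743% of all genes were called lower, was *LPIN1*, an SREBP target whose product makes diacylglycerol for triglyceride and phospholipid synthesis. It fell from 99.5 and 104.1 CPM in the control to 61.0 and 56.6 CPM with chaetocin. The log2 fold change of *LPIN1* was -0.79 with a standard error of 0.14, and edgeR's quasi-likelihood test gave an adjusted p of 0.0382. Both chaetocin samples were well below both controls. The call was lost without control sample 1 (log2 fold change -0.84, adjusted p = 0.113 by edgeR) and without control sample 2 (-0.77, adjusted p = 0.131), while the size of the difference moved little. DESeq2 gave an adjusted p of 0.00114.

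The median log2 fold change over the 29 genes was 0.03, with 17 above 0 and 12 below. Beyond *LPIN1*, the smallest log2 fold changes were those of *CH25H*, a cholesterol hydroxylase that makes an LXR ligand (-0.55), *LIPA*, the lysosomal lipase (-0.50), and *ACLY*, which makes cytosolic acetyl-CoA from citrate (-0.48). The adjusted p was 0.326, 0.0997 and 0.172, respectively, by edgeR's quasi-likelihood test. The largest were those of the desaturases *FADS2* (0.73, adjusted p = 0.124) and *FADS1* (0.30, adjusted p = 0.501), and of *CYP27A1*, a sterol hydroxylase with at most 1.13 CPM in any sample (0.57, adjusted p = 0.739). In all 3, chaetocin sample 2 was the higher one. In log2 against the control mean, chaetocin samples 1 and 2 were at 0.37 and 1.02 for *FADS2* and -0.03 and 0.59 for *FADS1*. For *CYP27A1* they were at -1.72 and 1.31. *CYP7B1* had no read in any sample. The LXR genes *NR1H2* (0.29) and *NR1H3* (0.12) and their partner *RXRA* (0.002) were not called.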

How the data were processed

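The authors deposited raw read counts per Ensembl gene, 1 table per sample, without normalization. The submitters' processing notes name cutadapt, TopHat2, SAMtools and the build GRCh37, and the counting tool and its strand setting are not given in the sources used here. Reads were single-end from polyadenylated RNA. Symbols came from a table of gene names (51996 of 57905 identifiers), and gene lengths and positions from GENCODE v29 on GRCh38. Because the count tables hold no coordinates, the builds were joined by identifier only.

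Differential expression was computed with edgeR 4.0.16 in R 4.3.3: filterByExpr (minimum count 10), TMM, a robust quasi-likelihood fit without block, and Benjamini-Hochberg adjustment over all genes tested, with a threshold of 0.05. The standard error was taken as the absolute log2 fold change over the root of F. The biological coefficient of variation was 16.8%. DESeq2 1.42.0, the tool of the study, was the alternative test, and other size factors, filters, a fit without robust estimation, the block and leaving out each sample were also tried. The code was tested on simulated data.

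The members and lists were chosen with earlier results of these data known. All members are named; those given sample by sample were the 3 of each role with the largest change, and *INSIG2*, *MVK*, *SQLE*, *NSDHL* and *LSS* were added after their values were seen. Promoters were planned for called members, and since edgeR called none, those that DESeq2 called are shown, with *SREBF2*.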

Additional observations from a re-analysis of the deposited data

How the results depend on the processing

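Members called lower numbered 1 with RLE size factors, 5 with no filter on low counts, 3 with DESeq2 and 0 in the reported fit; it stayed at 0 without robust estimation and with a filter of at least 10 counts in every sample. Over all genes, 787 were called higher and 759 lower with no filter, 382 and 478 with DESeq2, and 114 and 80 where each sample had to hold at least 10 counts. The further list had 2 called genes with no filter, *FADS2* as higher and *LPIN1* as lower. Samples 1 of both groups share only a number, as do samples 2, and the deviations of same-numbered samples correlated at 0.123 over all genes tested and at 0.234 over the 28 members. With the number as a replicate block, 6 members were called lower (*SREBF2*, *HMGCS1*, *SQLE*, *MSMO1*, *DHCR7* and *ABCA1*) and 0 higher. In that fit 3 further genes were called, *FADS2* as higher and *LIPA* and *LPIN1* as lower. Over all genes 1036 were called higher and 1053 lower, and the log2 fold change of *INSIG2* was -0.02. Leaving out 1 sample in turn gave 0 to 5 members called higher, 0 to 9 lower, 0 to 5 further genes called, 215 to 1332 of all genes higher and 97 to 1673 lower. The median log2 fold change of the members ranged from -0.288 to -0.175 over these fits, in which 28 or 29 members were tested. Over the 28 members of the reported fit alone, the median of the log2 fold changes was -0.309 without chaetocin sample 1. Those of 12 members crossed 0, ranging from -0.01 to 0.22 for *SCAP*, -0.12 to 0.20 for *INSIG1*, -0.51 to 0.42 for *INSIG2*, -0.51 to 0.05 for *PMVK*, -0.29 to 0.01 for *MVD*, -0.42 to 0.01 for *FDPS*, -0.09 to 0.96 for *TM7SF2*, -0.46 to 0.12 for *EBP*, -0.10 to 0.63 for *SC5D*, -0.31 to 0.78 for *MYLIP*, -0.36 to 0.08 for *FASN* and -0.49 to 0.64 for *SCD*. Those of *LSS* (-0.71 to -0.05), *IDI1* (0.14 to 0.51), *STARD4* (0.11 to 0.44) and *HSD17B7* (0.00 to 0.51) moved by over 1.5 times against the value of the reported fit. Other members moved by less on this measure, as did *ABCA1* (-1.27 to -0.74) and *SQLE* (-0.69 to -0.41). The cause was not tested. With 2 samples per group and a wide gap between the chaetocin samples, counts of calls moved with the sample left out.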
